A study of Drosophila melanogaster with 9 samples.

Results

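The large subunit of the cytoplasmic ribosome is built on ribosomal RNA and a set of proteins encoded by the RpL and RpLP genes. The genes described here are those whose FlyBase symbol is RpL or RpLP followed by a digit, leaving out names that end in -like and leaving out RpL22. The name table held 49 such symbols. The identifiers of 46 were found among the 17024 features counted in every library, and RpL19, RpL27A and RpL31 were not analysed here. Of the 46 genes, 44 passed the filter on low counts in each comparison. The other 2 were RpL10Aa and RpL37-2, which are described with their paralogs.

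All libraries were made from Drosophila melanogaster ovaries of the genotype larp::GFP::FLAG, in which the RNA-binding protein Larp carries GFP and a FLAG tag, dissected 1 to 3 days after eclosion. The 9 libraries form 3 groups of 3 replicates. An antibody to the tag gave the anti-FLAG IP libraries, mouse IgG on lysate of the same genotype gave the IgG control libraries, and the 10% of lysate set aside gave the input libraries. No library from untagged flies was analysed here, and the labels do not say which promoter drives the tagged protein or how many females were pooled. Each library is poly(A)-selected mRNA from whole ovaries, so germline and follicle cells are mixed and a difference in cell number cannot be told apart from a difference in RNA per cell.

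The large subunit carries the peptidyl transferase centre, the tunnel through which the new protein leaves, and a stalk on which translation factors are loaded. Each ribosome contains its proteins in nearly equal numbers, and cells make them from genes scattered over the genome. In mammals, most ribosomal protein mRNAs begin with a 5′ terminal oligopyrimidine tract, and LARP1, the mammalian relative of Larp, binds such mRNAs. In the Drosophila ovary, ribosome production is needed for germline stem cells to divide and differentiate.

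Library totals lay between 11316201 and 17571309 counts. Ovary transcripts were present as labelled: osk, which patterns the oocyte, had 1479 to 1628 CPM (counts scaled to a common library total) in the input libraries. The germline genes bcd and grk were lower in the input libraries, at 62.1 to 114 and 18.6 to 27.7 CPM. There the follicle cell gene Vm26Ab had 954 to 1695 CPM. Of the 8 genes chosen to mark other tissues, Fbp1, dj and Mst87F were at 0 in all 9 libraries, and Act88F, Hml and ninaE did not exceed 3.45 CPM in any of them. Lsp2 reached 59.3 CPM and the muscle gene Mhc reached 246 CPM, both in IgG control replicate 1. In the input libraries Mhc had 19.7 to 52.9 CPM. A feature whose identifier is 1 digit short took 0.0065% to 7.89% of the counts of a library and was highest in the IgG control group.

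The members took up much more of each anti-FLAG IP library than of any other library. They held 22.5%, 25.8% and 16.3% of all counts in anti-FLAG IP replicates 1, 2 and 3. In the input libraries they held 4.73%, 4.92% and 6.03%, and in the IgG control libraries 3.93%, 4.87% and 4.94%. The lowest anti-FLAG IP library was therefore above the highest library of either other group, while the ranges of input and IgG control overlapped. The share was 21.5% ± 4.79 (SD, n = 3) in anti-FLAG IP against 5.23% ± 0.70 in input, a ratio of 4.12 and a difference of 16.3 percentage points. Same-numbered libraries differed by 17.7, 20.8 and 10.3 points. The difference from the IgG control share of 4.58% ± 0.56 was 16.9 points. Both differences gave p = 0.1 in an exact two-sided permutation test (adjusted p = 0.15 over the 3 pairs of groups), which is the smallest value that 3 libraries against 3 allow. IgG control was 0.65 points below input (exact permutation p = 0.5, adjusted p = 0.5). The 95% Wilson intervals for the single libraries were at most 0.0254 points wide on either side, so counting error was far smaller than the spread between replicates.

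**Figure D1:**
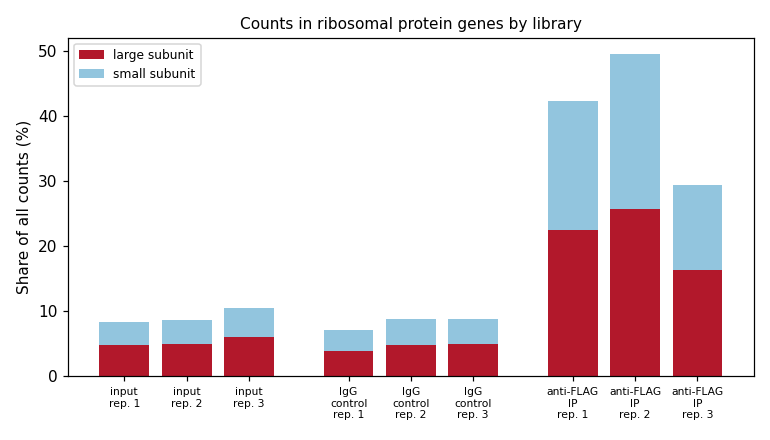
Share of all counts (%, vertical axis) in the 46 large subunit genes (dark bars) and, stacked above them, in 36 small subunit genes (pale bars), for each of the 9 libraries. The large subunit part is 16.3% to 25.8% in the anti-FLAG IP libraries and 3.93% to 6.03% in the other 6.

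Against input, all 44 tested members rose in the anti-FLAG IP at an adjusted p under 0.05 and at least 2-fold, by edgeR's quasi-likelihood test with Benjamini-Hochberg adjustment over all genes. Of all 7575 genes tested, 1.83% were called higher and 0.251% lower, and 14.4% had an unadjusted p under 0.05. The median log2 fold change of the members was 3.02 (8.12-fold), with a range from 1.59 to 4.15 and standard errors of 0.21 to 0.54, against a median of 0.01 over all genes. The highest adjusted p among the members was 0.00355, that of RpL4. Against IgG control, again all 44 rose, where 1.62% of 7408 genes were called higher and 0.0135% lower, and the median was 3.16 with a range from 1.68 to 4.17. In each comparison every anti-FLAG IP library was above every library of the other group for each of the 44 genes. Over all genes, the share with such a separation was 9.33% against input and 6.92% against IgG control. With total-count scaling the 44 genes were again entirely above both groups, where 1.66% and 1.77% of all genes were.

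The size of the change depended on the scaling between libraries. The values above use TMM factors, which set the typical gene to no change. With total counts alone the median of all genes was -0.88 against input and -0.84 against IgG control, and the member medians were 2.04 and 2.23. Under that scaling 43 members passed both criteria in each comparison, and RpL34a had log2 fold changes of 0.68 (adjusted p = 0.0309) and 0.81 (adjusted p = 0.0285), under the 2-fold minimum.

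**Figure D2:**
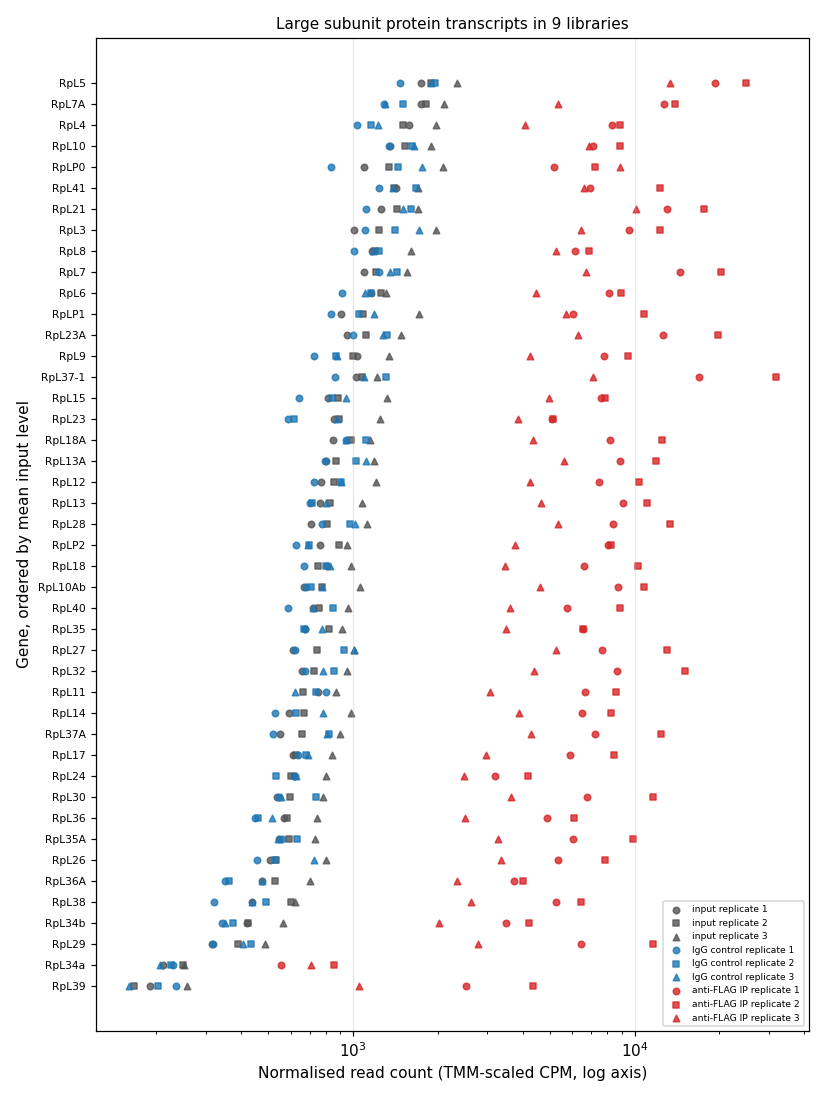
Normalised read count (TMM-scaled CPM, log axis) of each of the 44 tested genes in the 9 libraries, ordered by mean input level, with colour for the group and symbol for the replicate. Every anti-FLAG IP point of a gene lies to the right of its 6 other points, and the spread among the 3 anti-FLAG IP points is wider than in the other groups for most genes.

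On the TMM scale, the replicates of the anti-FLAG IP differed in strength in the same way for nearly all members. The normalised read count was highest in replicate 2 for 43 of the 44 genes and lowest in replicate 3 for 42. This order depended in part on the scaling. By total-count CPM, RpL4 was highest in replicate 1 (5586, 4896 and 3265) and RpL10 in replicate 3 (4778, 4874 and 5510). How many members kept the order under that scaling was not counted. The median log2 ratio of anti-FLAG IP to same-numbered input was 3.27, 3.61 and 1.95 in pairs 1, 2 and 3, and all 44 ratios were above 0 in each pair. The coefficient of variation of the normalised read counts had a median of 39.2% (13.4% to 66.9%) over the anti-FLAG IP libraries. It was 18.3% over the input libraries and 13.6% over the IgG control libraries. By normalised read count, all 44 genes were highest in input replicate 3 among the input libraries. Without anti-FLAG IP replicate 3, all 44 were still called in both comparisons, with medians of 3.31 and 3.44.

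Input levels differed widely between members. Mean normalised read counts ran from 205 to 1985 in input with a median of 873, from 200 to 1772 in the IgG control, and from 704 to 19169 in the anti-FLAG IP. Per kilobase of annotated exon, input levels had a median of 996 normalised counts. The highest was RpL41, a very short bridge protein, at 4713, followed by RpL21, a protein shared with archaea, at 2074, and RpL23, a bridge protein, at 1842. The lowest tested gene by this measure was RpL34a at 381. RpL41 was also the highest in the anti-FLAG IP, at 26922 normalised counts per kilobase. Across the 44 genes the log2 fold change against input had Pearson's r = -0.07 with exon length, -0.21 with input level and -0.15 with input level per kilobase (Spearman's rho = -0.08, -0.33 and -0.34). These are descriptions across genes measured in the same 6 libraries, and the input level enters both sides of the latter 2.

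The stalk recruits and activates the translational GTPases. RpLP0 anchors it, RpLP1 and RpLP2 form its flexible arms, RpL12 sits at its base, RpL40 is made as a fusion with ubiquitin, and RpL10 completes the subunit late in its assembly. All 6 genes of this group were called higher against both input and IgG control, with log2 fold changes against input of 2.25 to 2.98 and a median of 2.77.

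In normalised read counts, RpLP0 differed from the other members across the anti-FLAG IP replicates. It had normalised read counts of 1096, 1343 and 2092 in input, 838, 1441 and 1760 in the IgG control, and 5159, 7250 and 8873 in the anti-FLAG IP. It was the 1 member whose normalised read count was highest in anti-FLAG IP replicate 3. By total-count CPM, RpL8, RpL10 and RpL34a were also highest there. The normalised input and IgG control levels of RpLP0 were highest in replicate 3 as well, which in input held for all 44 members. RpLP1 was also highest in replicate 3 of both groups, but not in the anti-FLAG IP. As a share of the summed member counts, RpLP0 had log2 ratios of anti-FLAG IP to input of -0.97, -1.13 and 0.10 in pairs 1, 2 and 3. Its log2 fold change was 2.25 ± 0.36 (SE) against input (adjusted p = 0.00175) and 2.40 ± 0.36 over the IgG control (adjusted p = 0.000654).

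RpLP1 had 907, 1081 and 1717 normalised read counts in input, 832, 1050 and 1185 in the IgG control and 6045, 10761 and 5704 in the anti-FLAG IP. RpLP2 had 763, 890 and 948 in input, 628, 698 and 691 in the IgG control and 8068, 8205 and 3760 in the anti-FLAG IP. Both acidic stalk transcripts were thus several-fold higher in the lowest anti-FLAG IP library than in the highest input, and the fitted log2 fold changes against input were 2.62 ± 0.39 for RpLP1 and 2.97 ± 0.37 for RpLP2 (adjusted p = 0.000744 and 0.000271).

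RpL12 rose from 769, 855 and 1210 in input to 7439, 10362 and 4249 normalised read counts in the anti-FLAG IP, with 726, 909 and 902 in IgG control. RpL40 rose from 721, 759 and 957 to 5744, 8878 and 3608, with 589, 847 and 720 in IgG control. RpL10 started higher, at 1348, 1527 and 1897 in input and 1338, 1620 and 1645 in the IgG control, and reached 7126, 8842 and 6882. None of the 3 overlapped between the anti-FLAG IP and the other groups. Their log2 fold changes against input were 2.98 ± 0.39, 2.92 ± 0.38 and 2.28 ± 0.33, and the lowest of them, that of RpL10, was 2.32 ± 0.31 against IgG control.

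RpL5 and RpL11 carry the 5S ribosomal RNA into the subunit. RpL5 was the most abundant member in every group by mean level, with 1735, 1888 and 2333 normalised read counts in input, 1467, 1960 and 1889 in the IgG control and 19288, 24923 and 13295 in the anti-FLAG IP. Its annotated exons add up to 3835 bases, the longest of the set, and per kilobase its input level of 518 was below the median. RpL11 had 751, 666 and 869 in input, 804, 738 and 620 in the IgG control and 6664, 8605 and 3051 in the anti-FLAG IP. The log2 fold changes against input were 3.29 ± 0.42 for RpL5 (adjusted p = 0.000271) and 3.02 ± 0.40 for RpL11 (adjusted p = 0.000295).

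The proteins that line the exit tunnel or surround its opening gave the 6 tested genes RpL4, RpL17, RpL23A, RpL26, RpL35 and RpL39. All 6 were called higher in both comparisons, and against input they ranged from 2.09 to 3.71 with a median of 3.13. The lowest and the highest of the group, RpL4 and RpL39, both reach into the tunnel.

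RpL39 is among the smallest ribosomal proteins and had the lowest mean input level of the tested members. It had 190, 167 and 258 normalised read counts in input, 236, 203 and 160 in the IgG control and 2516, 4362 and 1048 in the anti-FLAG IP. Its log2 fold change was 3.71 ± 0.47 against input (adjusted p = 0.000451) and 3.73 ± 0.46 over the IgG control (adjusted p = 0.00023). Its exons overlap those of RpL12 on the opposite strand, so some reads of the pair could be shared if the counting ignored strand.

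RpL4, in contrast, was among the most abundant members in input and rose less. It had 1583, 1510 and 1964 normalised read counts in input, 1035, 1155 and 1221 in the IgG control and 8330, 8882 and 4078 in the anti-FLAG IP. The 3 IgG control libraries were all below the 3 input libraries. Its log2 fold change was 2.09 ± 0.37 against input and 2.65 ± 0.36 against IgG control (adjusted p = 0.00355 and 0.000205). Without input replicate 2 the value against input was 2.02 and missed the threshold (adjusted p = 0.0605).

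Bridge proteins touch the small subunit, and RpL10Ab and its paralog RpL10Aa form the mobile L1 stalk, where spent tRNA leaves. All 6 tested genes of this group (RpL8, RpL10Ab, RpL23, RpL24, RpL30 and RpL41) were called higher in both comparisons, with log2 fold changes against input from 2.22 to 3.54 and a median of 2.42. RpL30 was the highest, at 538, 596 and 779 normalised read counts in input, 546, 741 and 556 in the IgG control and 6768, 11596 and 3647 in the anti-FLAG IP (3.54 ± 0.44, adjusted p = 0.000265). RpL8, which reaches toward the peptidyl transferase centre, was the lowest, at 1170, 1201 and 1600 in input, 1004, 1233 and 1173 in the IgG control and 6142, 6884 and 5257 in the anti-FLAG IP (2.22 ± 0.31, adjusted p = 0.000469). The coefficient of variation over the anti-FLAG IP libraries was 13.4% for RpL8, the lowest of the tested members, and 54.6% for RpL30.

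RpL23 had 854, 891 and 1250 normalised read counts in input, 585, 618 and 875 in the IgG control and 5078, 5134 and 3851 in the anti-FLAG IP, giving 2.25 ± 0.31 against input and 2.76 ± 0.31 against IgG control. RpL41 had 1423, 1401 and 1701 in input, 1232, 1679 and 1381 in the IgG control and 6931, 12294 and 6620 in the anti-FLAG IP, giving 2.53 ± 0.36 against input.

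**Figure D3:**
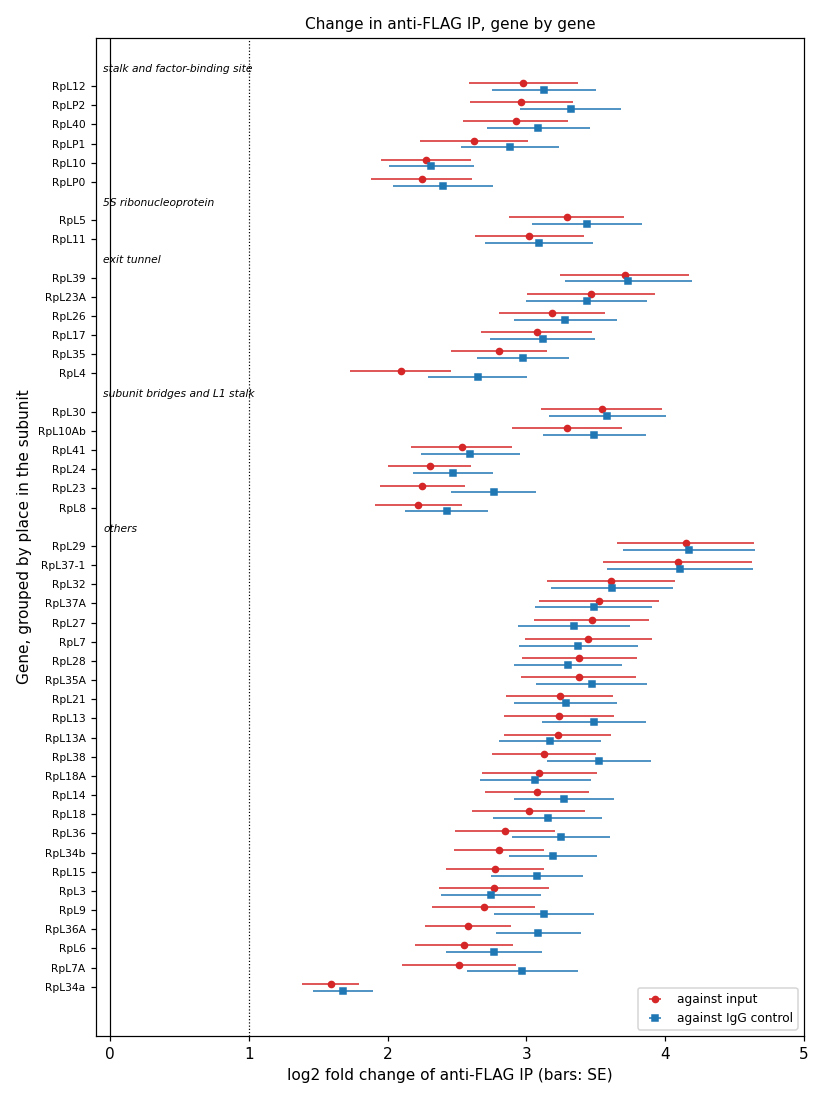
Change in the anti-FLAG IP on the log2 scale against input (circles) and IgG control (squares) for the 44 tested genes, grouped by place in the subunit. Bars are standard errors, the dotted line marks a 2-fold change, and every point lies between 1.59 and 4.17. The 2 comparisons share the anti-FLAG IP libraries.

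Among the 24 remaining tested genes, the log2 fold change against input ranged from 1.59 to 4.15 with a median of 3.11. RpL29, a small basic protein of eukaryotes, had the largest change of all members. It rose from 315, 389 and 485 normalised read counts in input to 6434, 11569 and 2785 in the anti-FLAG IP, with 317, 433 and 408 in IgG control. The log2 fold changes were 4.15 ± 0.49 against input (17.7-fold, adjusted p = 0.000265) and 4.17 ± 0.48 over the IgG control. The gene lies on chromosome arm 2R, and its exons overlap CG9752 on the opposite strand.

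RpL32, the gene often used as a reference in Drosophila quantitative PCR, was the fourth of the set. It had 658, 727 and 954 normalised read counts in input, 673, 853 and 783 in the IgG control and 8671, 15133 and 4380 in the anti-FLAG IP, an increase of 3.61 ± 0.46 on the log2 scale over input (adjusted p = 0.000273). RpL21 rose from 1255, 1427 and 1698 in input to 13066, 17654 and 10136, with 1115, 1600 and 1499 in IgG control, a log2 fold change of 3.24 ± 0.39.

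Some of these proteins are encoded by 2 genes. RpL37-1, which encodes a zinc-binding protein of the subunit and lies at chrX:15137870-15139367 on the minus strand, was strongly expressed, whereas RpL37-2 on arm 2R was nearly silent. RpL37-1 had 1025, 1074 and 1221 normalised read counts in input, 860, 1305 and 1090 in the IgG control and 16889, 31783 and 7091 in the anti-FLAG IP. Its anti-FLAG IP libraries differed the most among the 44 tested members, with a coefficient of variation of 66.9%, yet the lowest was above every other library. The log2 fold changes were 4.09 ± 0.54 against input (17.1-fold, adjusted p = 0.000297) and 4.11 ± 0.53 against IgG control. RpL37-2 had 16 counts in anti-FLAG IP replicate 1 and 0 in the other 8 libraries. RpL10Aa, at chr3R:15037366-15038149 on the plus strand, had 0 counts in all 9 libraries, where the limit that a count of 0 allows (3 counts) is 0.171 to 0.265 CPM. Its paralog RpL10Ab had 666, 773 and 1056 in input, 681, 706 and 772 in the IgG control and 8748, 10782 and 4625 in the anti-FLAG IP, an increase of 3.29 ± 0.40 on the log2 scale over input (adjusted p = 0.000265). Reads that 2 near-identical copies share may have been assigned to either or to none.

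The RpL34 paralogs were both expressed and rose by different amounts. RpL34a, at chr3R:26058420-26059267 on the minus strand, had 212, 248 and 250 normalised read counts in input, 230, 226 and 206 in the IgG control and 554, 852 and 706 in the anti-FLAG IP. RpL34b, at chr3R:9400237-9401226 on the minus strand, had 421, 424 and 563 in input, 342, 375 and 350 in the IgG control and 3477, 4203 and 2017 in the anti-FLAG IP. RpL34a had the smallest log2 fold change of the set, 1.59 ± 0.21 against input (3.01-fold, adjusted p = 0.000275) and 1.68 ± 0.22 over the IgG control (adjusted p = 0.000134). RpL34b had 2.80 ± 0.33 and 3.19 ± 0.32. The ratio of RpL34a to RpL34b counts was 0.503, 0.585 and 0.444 in input, 0.673, 0.602 and 0.589 in the IgG control, and 0.159, 0.203 and 0.350 in the anti-FLAG IP. The anti-FLAG IP ratios were below all the others, with the third replicate nearest to them.

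The question of whether single members rose by more or less than the set as a whole was addressed by scaling each library to its summed member counts and fitting anti-FLAG IP against input again. With an adjusted p under 0.05 and no fold minimum, 4 of 44 members were called as different from the sum. RpL29 (1.04 ± 0.41, adjusted p = 0.0127) and RpL37-1 (0.95 ± 0.37, adjusted p = 0.0121) were higher, and RpL34a (-1.29 ± 0.46, adjusted p = 0.0058) and RpL4 (-0.91 ± 0.38, adjusted p = 0.0191) were lower. On this scale 0.0924% of all genes were called higher and 88.8% lower. Since most genes fell relative to the members, the adjustment changed the p-values little, and the unadjusted values of these genes were 0.0108, 0.0103, 0.00483 and 0.0165. The same 4 were the members with an unadjusted p under 0.05. The adjustment therefore did little to allow for the testing of 44 members, and none was made over the 44 alone.

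The same 4 genes can be read as shares of the member counts. RpL37-1 took 2.82%, 2.72% and 2.37% of the member counts in input and 5.04%, 6.80% and 3.48% in the anti-FLAG IP. RpL29 took 0.867%, 0.985% and 0.942% in input and 1.92%, 2.48% and 1.37% in the anti-FLAG IP. RpL34a fell from 0.584%, 0.628% and 0.486% to 0.165%, 0.182% and 0.346%, and RpL4 from 4.36%, 3.82% and 3.82% to 2.49%, 1.90% and 1.999%. In each of the 4 genes the 2 groups did not overlap, and for the first 3 the third anti-FLAG IP replicate was nearest to the input. Such a separation was not particular to these genes. RpL8, not called, had 3.22%, 3.04% and 3.11% in input and 1.83%, 1.47% and 2.58% in the anti-FLAG IP. RpL30, also not called, had 1.48%, 1.51% and 1.51% in input and 2.02%, 2.48% and 1.79% in the anti-FLAG IP. The separation therefore did not set the 4 called genes apart from the other members, and the number of members that had it was not counted.

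The direction of the 4 differences was the same in all 3 pairs, whereas the number of genes that passed the threshold varied with the design and the libraries used. RpL4 had log2 ratios to the sum of -0.81, -1.01 and -0.93 in pairs 1 to 3, and RpL34a had -1.82, -1.78 and -0.49. RpL29 had 1.15, 1.33 and 0.53, and RpL37-1 had 0.84, 1.32 and 0.55. When the replicate number was added as a block, the sizes were similar, at 1.00 for RpL29, 0.90 for RpL37-1, -0.92 for RpL4 and -1.37 for RpL34a. Only RpL34a then passed (adjusted p = 0.0273), with adjusted p of 0.0571, 0.053 and 0.0546 for the other 3 in that order. Without anti-FLAG IP replicate 3, 20 members were called, 9 higher and 11 lower, including all 4. The count was 1 without anti-FLAG IP replicate 1, 3 without anti-FLAG IP replicate 2 and 2 without input replicate 1. The SD over the 44 genes of the log2 ratio to the sum was 0.56 and 0.68 in pairs 1 and 2 and 0.31 in pair 3, the pair with the weakest enrichment.

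**Figure D4:**
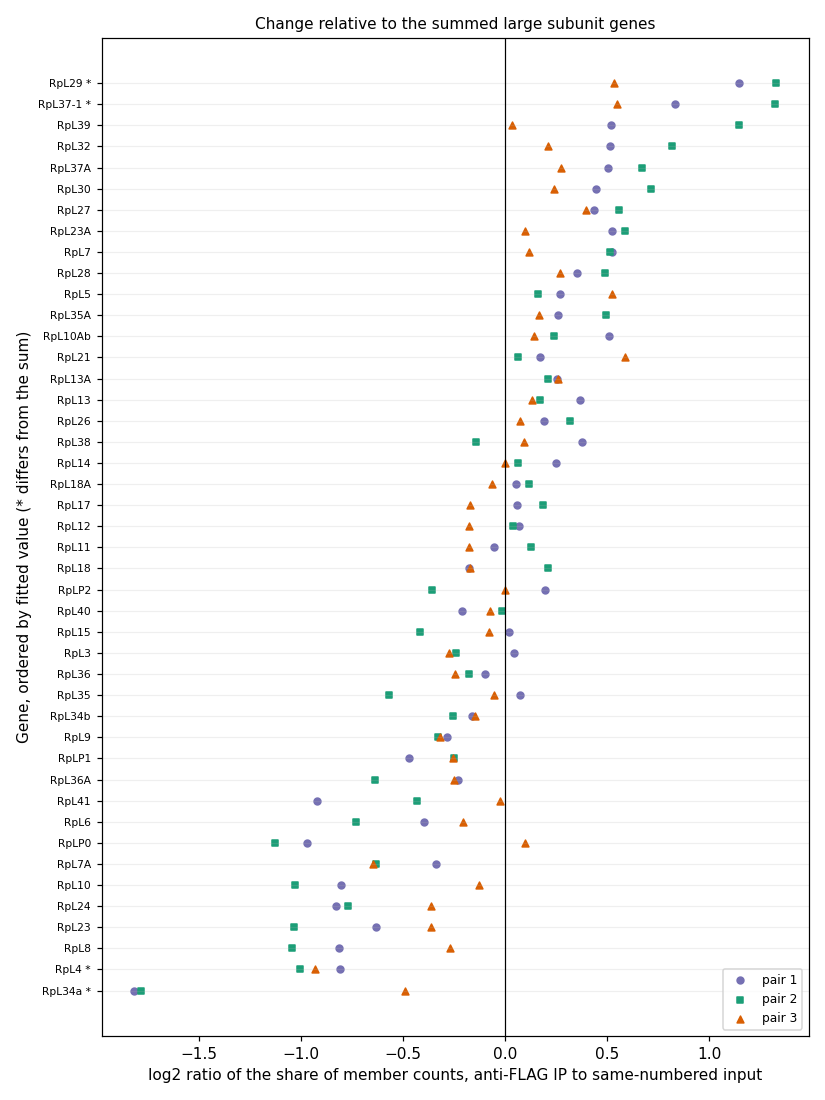
Log2 ratio of each gene's share of the member counts in anti-FLAG IP to that in the same-numbered input (horizontal axis), for the 44 tested genes ordered by fitted value, with 1 symbol per pair. Asterisks mark the 4 genes called as different from the sum. The triangles of pair 3 span a narrower range than the symbols of pairs 1 and 2.

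The order of the genes was similar between pairs. Over the 44 genes the log2 ratios of anti-FLAG IP to input had Pearson's r = 0.91 between pairs 1 and 2, 0.71 between 1 and 3 and 0.71 between 2 and 3 (Spearman's rho = 0.90, 0.79 and 0.75), as a description across genes that share libraries within a pair. Relative to the sum, 17 genes were above 0 in all 3 pairs, 15 were below 0 in all 3 and 12 were of mixed sign. RpL5 was above 0 in each pair and took the largest share of the counts of any member in anti-FLAG IP replicate 3, 6.52%.

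Other properties separated the members little. The 17 tested genes whose protein has a bacterial counterpart had a median log2 fold change against input of 2.98, and the 27 shared with archaea only or found in eukaryotes had 3.08. Introns of 14 members hold small nucleolar RNAs, which guide modification of ribosomal RNA, and the median was 3.08 for these hosts and 2.97 for the other 30. The 15 genes whose exons overlap another annotated gene had a median of 3.29 and the other 29 had 2.97. By chromosome arm, the medians were 2.85 for 5 genes on X, 3.23 for 11 on 2L, 3.02 for 9 on 2R, 3.05 for 10 on 3L and 2.80 for 9 on 3R. No test was made of these splits.

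The IgG control served as the background of the immunoprecipitation, and no member reached a 2-fold difference from input there. Against input, 0 members were called by edgeR, as were 0% of 7594 genes, and DESeq2 also called 0 members. The median log2 fold change was -0.15, with 36 members below 0 and 8 above. Over all 7594 genes the median was -0.002, with 3820 below 0 and 3774 above. Of the members, 8 had an unadjusted p under 0.05, which 6.12% of all genes had. The lowest member was RpL4 at -0.56 ± 0.15 (adjusted p = 0.672), below 0 in all 3 pairs (-0.61, -0.39 and -0.69). Its adjusted p was 0.0323 with the replicate block, at -0.56, and 0.0303 with DESeq2, in both cases under the 2-fold minimum. The highest member was RpL27 at 0.12 ± 0.22 (adjusted p = 0.995). For 6 members (RpL4, RpL7A, RpL9, RpL34b, RpL36 and RpLP2) every IgG control library was below every input library, named because the values showed this, and over all genes 8.56% had such a separation. The pair medians were -0.12, 0.09 and -0.32. Mhc was 55.7 to 246 CPM in IgG control and 19.7 to 52.9 CPM in input, and its part in these values was not tested.

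Compared to the other ribosomal protein genes, the large subunit genes changed much like those of the small subunit and unlike those of the mitochondrial ribosome. Of 36 small subunit genes, 34 were tested and 32 were called higher against input, with a median of 3.29, and 32 were called against IgG control, also with a median of 3.29. Of 47 genes for the large subunit of the mitochondrial ribosome, which is translated in the cytoplasm and imported, 46 were tested and 0 were called in either comparison by edgeR, with medians of -0.05 and 0.03 and unadjusted p under 0.05 for 8 and 5 (14.4% and 7.57% of all genes). With the replicate block, 1 of them was called lower against input, where 75 of all 7575 genes were. With total counts alone, where the median of all genes also fell, their medians were -0.92 and -0.79. Under that scaling 16 of them were called lower against input, where 2212 of all 7575 genes were. Against IgG control 8 were called lower, where 1387 of all 7408 genes were. Within the summed counts of the 36 small and the 46 large subunit genes, the latter held 57.2%, 56.9% and 57.3% in input. They held 54.7%, 55.5% and 56.6% in the IgG control and 53.2%, 52.0% and 55.5% in the anti-FLAG IP. The anti-FLAG IP mean was 3.57 points below input and did not overlap it (exact permutation p = 0.1, adjusted p = 0.15, with p = 0.1 the smallest possible), and 2.03 points below IgG control (exact p = 0.2, adjusted p = 0.2). IgG control was itself 1.54 points below input (exact p = 0.1, adjusted p = 0.15). This share was computed after the values had been seen, and it leaves out RpL22 and the unmatched RpL19, RpL27A and RpL31. Features without a symbol held 5.13% to 5.68% of all counts in input and 5.73% to 12.5% in the IgG control. In the anti-FLAG IP they held 9.43% to 9.73%, and their bearing on the share was not tested.

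Among the genes left out by name, RpL22 had a log2 fold change of 0.44 ± 0.26 against input (adjusted p = 0.492) and 1.02 ± 0.26 over the IgG control (adjusted p = 0.0894), neither of them called, and RpL24-like was called higher in both, at 1.48 ± 0.19 (adjusted p = 0.000283) and 1.60 ± 0.26 (adjusted p = 0.00177). RpLP0-like had 0.31 ± 0.85 against input (adjusted p = 0.928), RpL22-like had at most 12 counts in a library, and RpL7-like had 0 counts in all 9.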

How the data were processed

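For each of 9 libraries the authors deposited raw counts per FlyBase gene identifier, with no normalization. The submitters' processing notes name HISAT2 2.1.0, featureCounts 1.4.6 and build dm6. The kit keeps strand, but whether counting used it is not given in the sources used here, so reads of genes that overlap on opposite strands may be mixed. Symbols matched 16647 of 17024 features (377 without a symbol held 5.13% to 12.5% of a library's counts), and gene positions, exon lengths and overlaps are from the Ensembl 115 annotation of assembly BDGP6.54.

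Each pair of groups was fitted with its 6 libraries in edgeR 4.0.16 (R 4.3.3) with TMM factors, filterByExpr and the robust quasi-likelihood test, adjusted over all genes, with calls at adjusted p under 0.05 and at least 2-fold. DESeq2 1.42.0 was an alternative. Normalised read counts are CPM with TMM factors from all 9 libraries together, 0.551 to 0.801 for anti-FLAG IP and 1.17 to 1.30 for the others. The fits used factors computed anew from their own 6 libraries. The biological coefficient of variation was 0.39 for anti-FLAG IP against input and 0.57 in both comparisons with IgG control. Shares were compared by exact permutation in scipy 1.17.1. The fits were tested on simulated data in which as many genes were lowered as raised. Scaling under the mostly upward changes of the anti-FLAG IP was not tested in this way. Nothing in the labels says whether replicates came from separate dissections, so p-values measure only the spread between these libraries.

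Replicate numbers from the labels paired the libraries: deviations of same-numbered libraries correlated, with a mean r of 0.32 (0.20 to 0.45) for anti-FLAG IP and input, 0.26 (0.16 to 0.42) between both immunoprecipitations and 0.27 (0.19 to 0.44) for IgG control and input. The fit without the block stayed the main one. No 2 replicates agreed within sampling noise.

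The members and gene lists were chosen with earlier results of these data known. Named genes are those of the stalk, 5S and paralog lists, the 5 largest and 5 smallest changes against input, members not called, filtered out or differing from the sum, the 3 highest input levels per length, and genes left out by name. Planned sequence features of promoters and proteins were not computed, as no sequence was used here. The germline markers vas and nos were not matched by name and were not used.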

Additional observations from a re-analysis of the deposited data

How the results depend on the processing

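The calls of large subunit genes were stable under the alternatives run, and their sizes moved with the scaling. Against input and against IgG control, 43 or 44 of the 44 genes were called under DESeq2, other size factors, TMM without ribosomal protein genes, no low-count filter, all 9 libraries in 1 fit, the replicate block, leaving out the feature of malformed identifier (chosen after seeing the data) and leaving out each library. With total counts alone the medians were 2.04 and 2.23, and all genes split into 103 higher and 2212 lower against input (139 and 19 with TMM), and 98 and 1387 against IgG control (120 and 1). Leaving out 1 library gave member medians of 2.66 to 3.31 against input, 2.90 to 3.44 against IgG control and -0.23 to 0.03 for IgG control against input. The share differences were 14.2 to 18.9, 14.8 to 19.5 and -0.90 to -0.25 points. The replicate block gave medians of 2.92, 3.10 and -0.13. Sign-flip tests of the paired share differences gave an exact p of 0.25, which 3 pairs cannot go below. The count of genes called different from the sum was 1 with the replicate block and 1 to 20 when 1 library was left out. It therefore depends on the design and on single libraries, above all on anti-FLAG IP replicate 3. The block changed no other call of a named gene, although RpL4 in IgG control against input then passed in p alone (adjusted p = 0.0323). RpL27 in IgG control against input lay between -0.032 and 0.34 when 1 library was left out, and reversed to -0.015 without IgG control replicate 3 and to -0.032 without input replicate 1. The causes of these shifts were not tested. With 3 libraries a group, the spread between replicates limits the precision. For RpL10Aa and RpL37-2, depth and the handling of reads shared with a paralog limit what the low counts can show, and neither was tested.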
